A study of Mus musculus with 30 samples.

Results

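Onecut1, Onecut2 and Onecut3 are the members of the Onecut family of transcription factors, and they were followed through a mouse study of the motor neuron factor Mnx1 (also called Hb9). They were chosen by name, as 3 of the 45706 genes listed in the expression files. RNA was measured in 8 libraries from 4 groups of 2: motor neurons of HD, motor neurons of EH, wild-type motor neurons, and wild-type embryonic stem (ES) cells. HD and EH are names of lines that carry the same genotype label, Mnx1KO, and the labels do not say how the lines differ or what was changed in the gene. All motor neurons were induced from ES cells and collected on day 6. They had received retinoic acid and SAG (a Smoothened agonist), each at 1 µM, then doxycycline at 1 µM and DAPT, which blocks Notch signalling, at 5 µM. What doxycycline acts on in these cells is not given in the labels. A further 22 ChIP-seq libraries of HD and wild-type motor neurons gave 1 deposited list of enriched regions per target and genotype, for 5 histone marks in both genotypes and for Mnx1 in wild type.

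Onecut proteins bind DNA through a cut domain and a homeodomain that lie side by side. In the mouse spinal cord they are found in newly born motor neurons and in several kinds of interneuron, where they help to set which subtype a neuron becomes. In maturing motor neurons made from mouse ES cells, Onecut1 shares enhancers with the factor Isl1. Onecut1, also known as HNF-6, and Onecut2 act in the liver and pancreas as well, and Onecut3 is best known from neurons.

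Mnx1 RNA was not called as changed against wild type in either line that carries the knockout label (adjusted p of 0.977 in HD and 0.0640 in EH, edgeR). Its level was 377 and 312 TPM in HD, 446 and 565 TPM in EH, 395 and 343 TPM in wild-type motor neurons and 0.36 and 0.29 TPM in ES cells. TPM gives a gene's share of all transcripts in a library, corrected for length. A count over the whole gene cannot show a change inside it, so this value checks neither label. A marker of the labelled cell type was high, with Slc18a3, the vesicular acetylcholine transporter, at 256 to 350 TPM in the 6 motor neuron libraries and 0.47 and 0.27 TPM in ES cells. Depth moved with the groups, at 11.2 and 12.4 M expected counts in HD, 39.8 and 39.7 M in EH, 13.9 M in each wild-type library, and 53.2 and 51.3 M in ES cells. The labels do not say whether the libraries of a group came from separate cultures, so p-values cover the spread between these libraries, which may be technical.

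Onecut1 lies on chromosome 9 (GRCm38.p6, chr9:74861921-74889648, plus strand). The 250 bases that end at its start are shown because the H3K4me3 and H3K27ac regions described below cover or reach them, and because the mark H3K27me3 lies on both sides of this start. They are printed 5′ to 3′ from RefSeq's GRCm38.p6 sequence, chr9:74861671-74861920, with each CG dinucleotide in capitals.
Onecut1: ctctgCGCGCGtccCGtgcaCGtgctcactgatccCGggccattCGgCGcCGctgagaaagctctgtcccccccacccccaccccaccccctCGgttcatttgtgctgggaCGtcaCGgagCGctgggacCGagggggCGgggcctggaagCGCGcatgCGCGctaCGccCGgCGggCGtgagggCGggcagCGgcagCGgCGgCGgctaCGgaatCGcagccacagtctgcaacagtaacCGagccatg
This stretch holds 31 CG dinucleotides, against a median of 6 over the 32851 promoters of the same table, and 94.8% of those promoters hold fewer. Its G and C content is 71.6%, against a median of 52.4%. Neither the Onecut core ATTGAT nor its palindromic form ATCGAT was found on either strand, and these were present in 6.72% and 0.728% of all promoters. The homeodomain core TAATTA was not found either, and 4.84% of all promoters held it.

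Onecut2 lies on chromosome 18 (64340032 to 64398488) and Onecut3 on chromosome 10 (80494906 to 80517266). All 3 Onecut genes were RNAs of the motor neurons and were close to absent from ES cells. Onecut1, the founding member of the family, stood at 24.9 and 29.0 TPM in wild-type motor neurons and at 0.22 and 0.54 TPM in ES cells. Onecut2 stood at 15.3 and 17.8 TPM in wild-type motor neurons and at 0.14 and 0.19 TPM in ES cells. Onecut3 stood at 37.3 and 31.7 TPM in wild-type motor neurons, and was listed at 0.00 and 0.01 TPM in ES cells. For each gene both motor neuron libraries lay far above both ES libraries.

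In the edgeR quasi-likelihood test, wild-type motor neurons exceeded ES cells by 5.71 ± 0.31 (log2, SE) for Onecut1, with a Benjamini-Hochberg adjusted p of 1.2e-06. Onecut2 was higher by 6.00 ± 0.32, with an adjusted p of 1.0e-06 in the same edgeR fit. Onecut3 had 2565 counts in the 2 wild-type motor neuron libraries and 1 count in the 2 ES libraries. After scaling for depth this is a ratio of 8011, with an exact 95% interval of 1437 to 316600 that covers counting error only, and its adjusted p was 1.2e-07 (edgeR). All 3 genes thus rose, in a comparison where 75.3% of the 17770 tested genes were called and 38.8% were higher in motor neurons. In bulk RNA, a change in how many cells make a transcript and a change in the amount per cell cannot be told apart, here and in the results that follow.

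**Figure D1:**
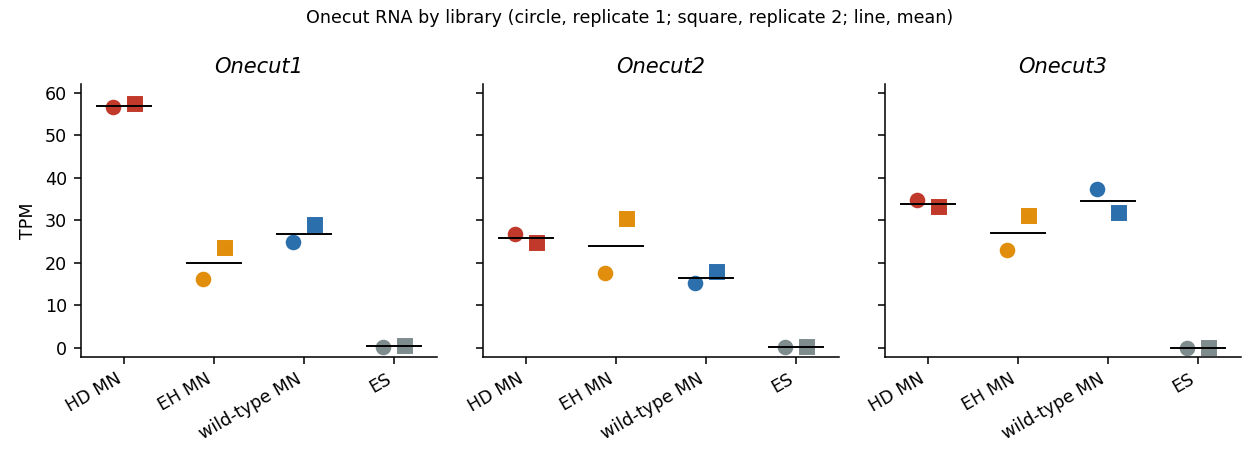
TPM (vertical axis) of Onecut1, Onecut2 and Onecut3 in each library of HD, EH and wild-type motor neurons (MN) and ES cells; circles are replicate 1, squares replicate 2 and bars the mean of the 2. Both HD libraries lie above all others for Onecut1, the EH replicates lie far apart for Onecut2, and the 3 motor neuron groups lie near each other for Onecut3.

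The order of the 3 genes differed between the motor neuron groups. In wild-type motor neurons, Onecut3 had the highest mean level (34.5 ± 4.00 TPM, SD, n = 2), ahead of Onecut1 (26.9 ± 2.95 TPM) and Onecut2 (16.6 ± 1.75 TPM), and the libraries of these genes did not overlap. In HD, Onecut1 came first at 57.0 ± 0.523 TPM, above Onecut3 at 33.9 ± 1.2 TPM and Onecut2 at 25.8 ± 1.49 TPM (SD, n = 2). In EH the means were 27.1 ± 5.65 TPM for Onecut3, 23.9 ± 9.0 TPM for Onecut2 and 19.9 ± 5.07 TPM for Onecut1, and these overlapped from library to library, so they have no firm order.

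The summed level of the family was 118 and 115 TPM in HD, 57.0 and 84.9 TPM in EH, 77.5 and 78.5 TPM in wild-type motor neurons and 0.36 and 0.74 TPM in ES cells. Onecut1 made up 47.9% and 49.8% of that sum in HD, 28.7% and 27.7% in EH, and 32.1% and 37.0% in wild-type motor neurons. Set against Onecut3 in the same library, Onecut1 stood at a ratio of 1.63 and 1.73 in HD, 0.71 and 0.76 in EH, and 0.67 and 0.92 in wild-type motor neurons. The HD ratios lay above all others, whereas those of EH and wild type overlapped.

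In HD, Onecut1 was about double its wild-type level. It stood at 56.6 and 57.4 TPM in HD, against 24.9 and 29.0 TPM in wild-type motor neurons. The HD libraries lay close together and above both wild-type libraries. The log2 fold change was 1.06 ± 0.20 (SE, n = 2 each), and in the fit of all 6 motor neuron libraries it did not pass the test, with an unadjusted p of 0.00108 and a Benjamini-Hochberg adjusted p of 0.143 (edgeR).

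Onecut2 stood at 26.9 and 24.8 TPM in HD, against 15.3 and 17.8 TPM in wild-type motor neurons, again without overlap. Its log2 fold change was 0.65 ± 0.24, with an adjusted p of 0.779 (edgeR). Onecut3 stood at 34.8 and 33.1 TPM in HD, against 37.3 and 31.7 TPM in wild-type motor neurons, so the HD libraries lay between the wild-type ones. Its log2 fold change was -0.01 ± 0.15, with an adjusted p of 0.995 (edgeR). Of the 3 genes, 0 were called by edgeR in this fit, where 0.173% of 15565 tested genes were called and 0.135% were called as higher. At an unadjusted p under 0.05 the number was 2 of 3, and DESeq2 called 1. Over all genes DESeq2 called 182 of 15565, while the share at an unadjusted p under 0.05 was not counted. The same background holds for the counts of neighbours and listed genes in HD against wild type below.

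The calls for Onecut1 and Onecut2 in HD depended on whether EH was in the fit. With HD and wild-type libraries alone, edgeR gave log2 fold changes of 1.06 ± 0.11 for Onecut1 (adjusted p = 0.00294) and 0.65 ± 0.10 for Onecut2 (adjusted p = 0.0149), so that 2 of 3 genes were called as higher, where 2.21% of 15182 genes were called and 1.71% were called as higher. The fold changes were the same in both fits and the standard errors were smaller in the second. The spread between replicates was wider in EH, where edgeR's common biological coefficient of variation, which sets aside counting noise, was 0.207, than in HD (0.0755) and wild-type motor neurons (0.0833). In the fit of HD and wild type, the Onecut2 call was lost without replicate 1 of HD (0.60 ± 0.12, adjusted p = 0.0563), while Onecut1 was called without each of the 4 libraries in turn. Leaving only 1 of the EH libraries out of the 6 gave log2 fold changes of 1.06 for Onecut1 and 0.66 (without replicate 1) and 0.65 (without replicate 2) for Onecut2. A lone EH library adds nothing to the estimate of the spread. These fits therefore repeat the fit of HD and wild type and are no further check on it. DESeq2 on all 6 libraries called Onecut1 (adjusted p = 0.000203) and left Onecut2 uncalled (adjusted p = 0.320).

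In EH no Onecut gene was called against wild type, and the replicates of EH lay wide apart. Onecut1 stood at 16.3 and 23.5 TPM in EH, against 24.9 and 29.0 TPM in wild-type motor neurons, which is lower in both EH libraries, with a log2 fold change of -0.38 ± 0.19 and an adjusted p of 0.208 (edgeR). Onecut2 stood at 17.5 and 30.3 TPM in EH, against 15.3 and 17.8 TPM in wild-type motor neurons. The lower EH library fell within the wild-type range and the other lay above it, and the log2 fold change was 0.55 ± 0.24 with an adjusted p of 0.147 (edgeR). Onecut3 stood at 23.1 and 31.1 TPM in EH, against 37.3 and 31.7 TPM in wild-type motor neurons, with a log2 fold change of -0.33 ± 0.15 and an adjusted p of 0.161 (edgeR). Both EH libraries lay below both wild-type libraries, by a narrow margin for the higher one. Of the 3 genes, 0 had an unadjusted p under 0.05 and 0 were called by DESeq2. Among all genes, 21.2% were called in this comparison.

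All 3 genes were higher in replicate 2 of EH than in replicate 1, and which replicate entered the fit set the calls. Without replicate 2 of EH, Onecut1 fell by 0.68 (adjusted p = 0.00826, edgeR) and Onecut3 fell by 0.55 (adjusted p = 0.00843) on the log2 scale. Without replicate 1 of EH, these were not called and Onecut2 rose by 0.90 (adjusted p = 0.000759, edgeR). The lone EH library is assumed in these fits to vary like the other groups.

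The lines that share the knockout label differed in Onecut1. Its level was 56.6 and 57.4 TPM in HD, against 16.3 and 23.5 TPM in EH, so every HD library was more than double every EH library. The log2 fold change was 1.43 ± 0.19, with an adjusted p of 0.00652 (edgeR). It was the 1 member of the 3 called between the lines, where 21.2% of all tested genes were called and 11.8% were higher in HD. The call was kept without each of the other libraries and lost without replicate 2 of HD (1.42 ± 0.25, adjusted p = 0.0581, edgeR).

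For Onecut2, the HD libraries (26.9 and 24.8 TPM) lay between those of EH (17.5 and 30.3 TPM), with a log2 fold change of 0.10 ± 0.24 and an adjusted p of 0.789 (edgeR). For Onecut3, both HD libraries (34.8 and 33.1 TPM) lay above both EH libraries (23.1 and 31.1 TPM), with a log2 fold change of 0.32 ± 0.15 that did not pass the test (adjusted p = 0.174, edgeR). Both of these were called as higher in HD without replicate 2 of EH (0.54 for each gene, adjusted p of 0.0100 for Onecut2 and 0.00758 for Onecut3, edgeR). Onecut2 was lower in HD, at -0.24, without replicate 1 of EH.

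With the mean of both lines set against wild type, 0 of the 3 genes were called by edgeR, among 0.816% of all genes called. Onecut2 alone had an unadjusted p under 0.05 (0.0263), and DESeq2 called 0. The log2 fold changes were 0.34 ± 0.17 for Onecut1, 0.60 ± 0.21 for Onecut2 and -0.17 ± 0.13 for Onecut3, with adjusted p of 0.319, 0.187 and 0.515 (edgeR). Onecut2 was called without either EH library (0.78 without replicate 1, 0.38 without replicate 2), and Onecut1 without replicate 1 of EH (0.48, adjusted p = 0.0137). For Onecut1 this mean is made of lines whose values lie on opposite sides of wild type.

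**Figure D2:**
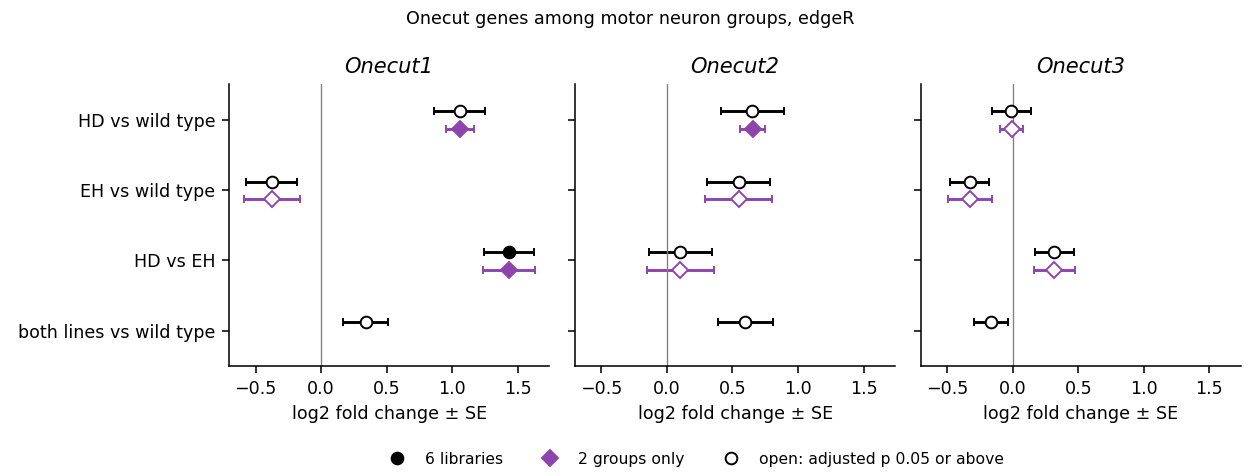
Log2 fold change with its standard error (horizontal axis) of each Onecut gene in 4 comparisons among motor neuron groups, from edgeR on all 6 libraries (black circles) or on the 2 groups compared alone (purple diamonds); filled symbols have an adjusted p under 0.05. Onecut1 is filled for HD against EH in both fits, while Onecut1 and Onecut2 are filled for HD against wild type only in the fit without EH.

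A long noncoding RNA gene next to Onecut1 moved with it. Gm16551 lies from 13.5 to 9.05 kb before the Onecut1 start (chr9:74848437-74852872) and does not overlap Onecut1. Its level was 86.5 and 86.6 TPM in HD, 11.5 and 16.9 TPM in EH, 27.9 and 35.2 TPM in wild-type motor neurons and 0.33 and 0.75 TPM in ES cells. As for Onecut1, both HD libraries lay above wild type and both EH libraries below it.

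Gm16551 was higher in HD than in EH by 2.46 ± 0.19 (log2, SE), with an adjusted p of 0.00187 (edgeR). Against wild type it was higher in HD by 1.48 ± 0.18, just short of the threshold (adjusted p = 0.0507, edgeR), and by 1.48 ± 0.10 in the fit of HD and wild type alone (adjusted p = 0.000713). In EH it fell by 0.98 ± 0.18 on the log2 scale against wild type (adjusted p = 0.0148, edgeR), a call lost without either wild-type library (adjusted p of 0.0678 and 0.116). The function of Gm16551 is not given in the sources used here. RefSeq lists further noncoding genes here, Gm33562 and Gm38678, for which no value was found. Gm33562 (chr9:74792582-74863136) spans all of Gm16551 and the start of Onecut1, and Gm38678 lies over the body of Onecut1. Counting by strand is not stated. Reads shared with these genes cannot be told apart from those of Onecut1 or, for Gm33562, of Gm16551, which also bears on how the levels of these 2 moved together.

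**Figure D3:**
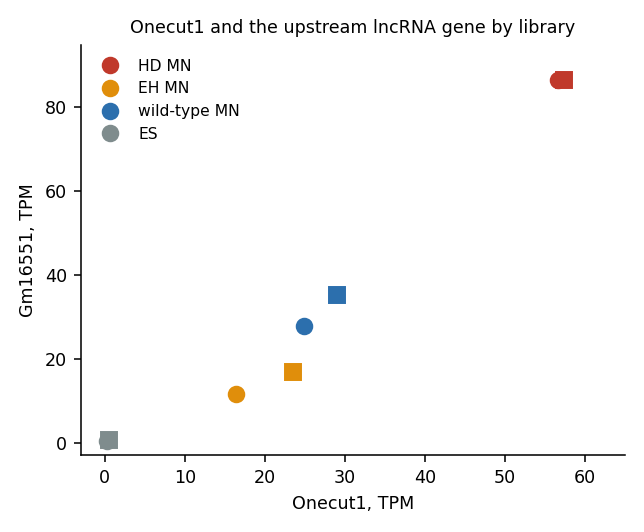
TPM of Onecut1 (horizontal axis) and of the upstream noncoding gene Gm16551 (vertical axis) in the 8 RNA libraries; circles are replicate 1 and squares replicate 2. HD libraries lie at the upper right, wild-type and EH motor neurons below them in that order, and ES cells near 0.

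Around Onecut3, Klf16, a Krüppel-like zinc finger factor, fell by 0.62 ± 0.14 on the log2 scale in EH against wild type (adjusted p = 0.0222, edgeR). That call was lost without each HD or wild-type library in turn, with adjusted p of 0.0527 to 0.147. Of 5 tested genes within 50 kb of an Onecut gene, 0 were called in HD against wild type in the fit of 6 libraries, where 0.173% of all genes were called, while 1 had an unadjusted p under 0.05 and 1 was called by DESeq2. In EH, 0 rose and 2 fell, which are Gm16551 and Klf16, where 9.61% of all genes rose and 11.6% fell.

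The genes whose levels followed each Onecut gene most closely over the 6 motor neuron libraries differed from member to member. Of 2421 coding genes with a mean of at least 1 TPM and a range of at least 1 on the log2 scale, those most like Onecut1 were Zfp618, Arhgap20, Rab3c, Bmp7 and Kcnd2, with a Pearson r of log2(TPM + 1) between 0.990 and 0.994. Bmp7, a secreted growth factor, had 72.2 and 78.1 TPM in HD, 27 and 36.8 TPM in EH, and 38.6 and 38.3 TPM in wild-type motor neurons. Those most like Onecut2 were Tceal6, Galnt14, Asic2, Prdm8 and Frmd4b, with r between 0.949 and 0.992. Among those most like Onecut3 were Gpr162, Sema4a, Scn3b and Ckmt1, with r between 0.956 and 0.973. Scn3b, a sodium channel beta subunit, had 96.0 and 81.9 TPM in HD, 45.5 and 64.6 TPM in EH, and 91.6 and 79.4 TPM in wild-type motor neurons. These correlations describe 6 libraries from 3 groups that share culture and depth by group, and they carry no p.

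The partners with which Onecut factors act in motor neurons were described by a list of 13 genes of the Isl1 and Lhx3 programme. In HD against wild type, 0 of 13 were called in the edgeR fit of 6 libraries (4 at an unadjusted p under 0.05, and 3 by DESeq2), with a median log2 fold change of 0.03, against -0.01 over all genes tested. In EH, 6 of 13 rose and 0 fell, where 9.61% of all genes rose, with a median of 0.46 against 0.00 over all genes. Isl1, the LIM homeodomain factor at the core of this programme, had 594 and 695 TPM in EH, against 363 and 283 TPM in wild-type motor neurons, and rose by 0.89 ± 0.15 (adjusted p = 0.0108, edgeR). Ebf1 rose by 1.43 ± 0.18 (adjusted p = 0.00620) and Ebf3 by 1.21 ± 0.20 (adjusted p = 0.0113). Without either wild-type library these 3 calls were lost, with adjusted p between 0.0600 and 0.101. These are early B cell factor genes, which act in neurons as they leave the cell cycle.

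Between the lines, 0 of the 13 were higher in HD and 7 were lower, where 9.43% of all genes were lower. Lhx4, a LIM homeodomain factor of early motor neurons, had 38.7 and 29.7 TPM in HD, against 92.5 and 109 TPM in EH. Isl2, a LIM homeodomain partner of Isl1, had 62.3 and 72.3 TPM in HD, against 129 and 192 TPM in EH. Lhx4 was lower in HD by -1.63 ± 0.16 (adjusted p = 0.00349, edgeR) and Isl2 by -1.19 ± 0.22 (adjusted p = 0.0129), the call of Isl2 being lost without either HD library (adjusted p of 0.0822 and 0.0833). So in the comparison of the lines Onecut1 was higher in HD while the called genes of its partners' programme were higher in EH. Against ES cells, 11 of the 13 were higher in wild-type motor neurons and 2 were lower, where 75.3% of all genes were called and 38.8% were higher.

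A second list held Isl1, Pou2f2 and Nkx6-2, which earlier work ties to Onecut factors in the mouse spinal cord. In HD against wild type 0 of 3 were called by edgeR, 0 had an unadjusted p under 0.05 and 0 were called by DESeq2. In EH 1 rose, Isl1, and 0 fell, where 9.61% of all genes rose and 11.6% fell. Nkx6-2, a homeodomain factor, was at -0.51 ± 0.17 in EH against wild type without passing the test (adjusted p = 0.0775, edgeR). Pou2f2, a POU factor, was at 0.43 ± 0.33 (adjusted p = 0.398, edgeR). Against ES cells, 3 of 3 of these genes were higher in wild-type motor neurons, as were 38.8% of all genes.

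Onecut genes are also expressed by interneurons, and the markers of other cell types were summed in each group. The 6 genes listed for V1 interneurons and Renshaw cells summed to 5.08 to 6.52 TPM in HD, 3.09 to 3.71 TPM in EH and 4.6 to 5.11 TPM in wild-type motor neurons. The sums of HD and wild type overlapped, and those of EH lay below both. En1, the defining marker of V1 interneurons, was at or under 0.23 TPM in all motor neuron libraries. Of the 4 genes of this list tested, 0 were called by edgeR in HD against wild type (2 at an unadjusted p under 0.05, and 1 by DESeq2). In EH 1 rose, Foxp2, and 1 fell, Pax2, where 9.61% of all genes rose and 11.6% fell. Pax2, a paired box factor of inhibitory interneurons, had 0.31 and 0.27 TPM in EH, against 1.5 and 1.64 TPM in wild-type motor neurons, and fell by 2.31 ± 0.28 on the log2 scale (adjusted p = 0.00590, edgeR), a call lost without either wild-type library (adjusted p of 0.0544 and 0.0702). Foxp2, a forkhead factor, had 1.06 and 1.36 TPM in EH, against 1.31 and 0.69 TPM in wild-type motor neurons. Its libraries overlapped in TPM, and the edgeR fit put it at 1.09 ± 0.27 (adjusted p = 0.0312), a call lost without each HD or wild-type library in turn (adjusted p of 0.0598 to 0.193). The 8 genes of liver and foregut endoderm, where Onecut1 and Onecut2 also act, summed to 8.61 to 13.3 TPM in HD, 20.8 to 37.4 TPM in EH and 11.2 to 13.9 TPM in wild-type motor neurons, with Alb under 0.1 TPM throughout. The 6 pluripotency genes summed to 82.3 to 94.6 TPM in HD, 83.0 to 208 TPM in EH and 138 to 149 TPM in wild-type motor neurons, against 5575 to 6324 TPM in ES cells. The 7 V2 interneuron genes summed to 47.9 to 58.6 TPM in HD and 15.6 to 27.5 TPM in EH. In wild-type motor neurons they summed to 57.6 to 71.5 TPM. Dorsal interneuron and sensory neuron genes summed to at most 9.37 TPM in any motor neuron library. The 6 motor neuron progenitor genes summed to 106 to 110 TPM in HD and 76.05 to 82.2 TPM in EH. In wild-type motor neurons these reached 44.25 to 47.8 TPM. Among them, Sox1 had 66.5 and 61.8 TPM in HD, 5.73 and 12.1 TPM in EH, and 6.18 and 12.4 TPM in wild-type motor neurons. The sum in HD is thus mostly Sox1. Olig2 was at or under 0.68 TPM and Hes5 at or under 0.88 TPM in all motor neuron libraries. Sox2 had 3.88 and 1.99 TPM in HD, against 5.67 and 3.51 TPM in wild type. The part of these other cell types in the Onecut levels was not tested.

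Of 3 relatives that share the CUT class (Cux1, Cux2 and Satb1), 0 were called in HD against wild type by edgeR (1 at an unadjusted p under 0.05, and 0 by DESeq2). In EH, where 21.2% of all genes were called and 11.6% fell, 0 rose and 1 fell, which was Cux2, at -0.68 ± 0.18 (adjusted p = 0.0364, edgeR), a call lost in the fit of EH and wild type alone (adjusted p = 0.0701) and without each HD or wild-type library in turn (adjusted p of 0.0729 to 0.179). Against ES cells 3 of 3 were higher in wild-type motor neurons, beside 38.8% of all genes. The transcripts that host miR-9, a microRNA that targets Onecut1 and Onecut2, summed to 0.65 to 0.67 TPM in HD, 0.46 to 0.65 TPM in EH, 0.59 to 0.79 TPM in wild-type motor neurons and 2.37 to 2.45 TPM in ES cells. They were thus at the edge of detection in the motor neurons.

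The chromatin of the 3 genes was read from the deposited region lists. H3K4me3 marks the starts of genes, H3K27ac active starts and enhancers, H3K4me1 enhancers, H3K27me3 genes held by Polycomb complexes, and H3K9me3 heterochromatin. Each mark has 1 list per genotype, so a difference between HD and wild type has no replicate check and no test, and the fold and q of each region are the authors' own. In the wild-type H3K27ac list the names of the regions carry a knockout tag although the sample label says wild type. Here the sample label sets the genotype.

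Long H3K4me3 regions covered the low-coordinate end of each Onecut gene, which is the start of Onecut1. For Onecut2 and Onecut3 no strand was given, and this end is taken here as the start because H3K4me3 covers it. At Onecut1 the region ran from 1.32 kb before the start to 7.30 kb after it in HD, and from 1.32 kb before to 7.08 kb after it in wild type. At Onecut2 it was 10.7 kb long in HD and 11.0 kb in wild type, and at Onecut3 4.66 kb in HD and 4.89 kb in wild type. By length these ranked 44, 19 and 597 among 19226 regions in HD, and 68, 23 and 582 among 21286 in wild type, for Onecut1, Onecut2 and Onecut3 in turn. Such a region within 1 kb of an end was found at 61.4% of coding genes in HD and 62.4% in wild type, so the presence of the mark is common and the length at Onecut1 and Onecut2 is what stands near the top of the lists.

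H3K27ac also covered all 3 starts. Its region was 7.38 kb long at Onecut1 in HD and 7.59 kb in wild type, 7.80 kb at Onecut2 in HD and 5.10 kb in wild type, and 4.34 kb at Onecut3 in HD and 4.28 kb in wild type. At Onecut2, 2 wild-type regions, of 5.10 and 1.13 kb, lay where HD had the single region of 7.80 kb. The fold enrichment at the start was 5.52 in HD and 4.63 in wild type at Onecut1, 4.49 in HD and 4.54 in wild type at Onecut2, and 3.21 in HD and 3.60 in wild type at Onecut3. The background was 44.6% of coding genes in HD and 43.5% in wild type with H3K27ac within 1 kb of an end.

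A second stretch of active marks lay before Onecut1, over the end of Gm16551 that is farther from Onecut1. H3K27ac covered 15.2 to 11.6 kb before the Onecut1 start in HD, at a fold of 5.74, and 15.1 to 11.7 kb before it in wild type, at a fold of 4.29. H3K4me3 covered 14 to 10 kb before the start in HD, at a fold of 17.4, and 14.1 to 11.1 kb in wild type, at a fold of 41.6. By fold these ranked 10063 among 19226 regions in HD and 9007 among 21286 in wild type. Wild type had weaker H3K4me3 regions on either side. They lay 15.08 to 14.49 kb before the start (fold 5.165) and 11.05 to 10.05 kb before it (fold 3.445). The H3K27ac region here had the highest fold of the 3 H3K27ac regions near Onecut1 in HD, and was second to the start in wild type. H3K27me3 lay over the same stretch, from 13.7 to 12 kb and from 11.4 to 10.4 kb before the start in HD, at folds of 3.11 and 2.68, and from 15.3 to 9.92 kb before it in wild type, at a fold of 4.65. A short H3K27ac region between this stretch and the start, 8.0 to 7.25 kb before it, was listed in HD at a fold of 2.02 and not in wild type.

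**Figure D4:**
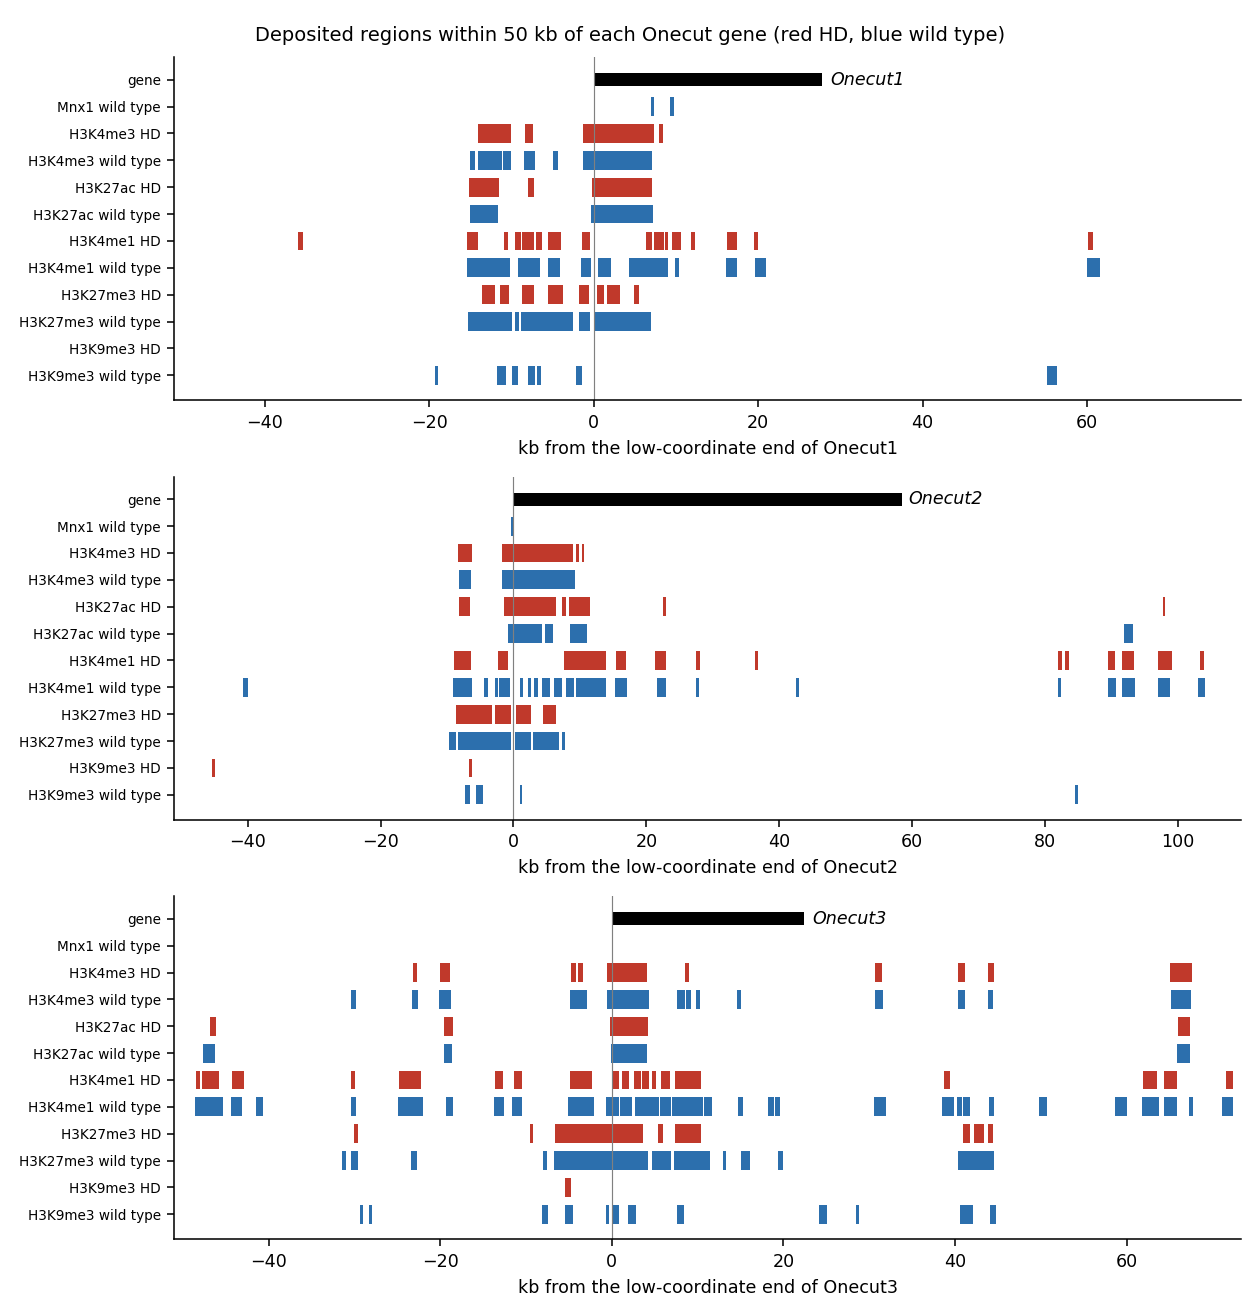
Regions of each deposited list (rows; red HD, blue wild type) along the 50 kb on either side of each Onecut gene (black bar), in kb from the low-coordinate end of the gene; regions that run past the window are drawn up to its edge. H3K4me3 and H3K27ac cover the start of all 3 genes in both genotypes. H3K27me3 lies within 1 kb of each start, with a gap at the start itself of Onecut1 and Onecut2. Mnx1 regions lie inside Onecut1 and at the start of Onecut2.

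H3K27me3 lay at the same starts as the active marks, where 14.0% of coding genes in HD and 19.6% in wild type had it within 1 kb of an end. At Onecut3 a single region of 10.2 kb in HD, at a fold of 5.83, and of 10.9 kb in wild type, at a fold of 11.5, covered the start. At Onecut1 the wild-type regions stopped 0.46 kb before the start and began again 0.02 kb after it, running to 6.90 kb, at folds of 4.86 and 4.82. In HD they stopped 0.54 kb before the start and began again at 0.45 kb, in pieces of 0.82, 1.6 and 0.68 kb inside the gene, at folds of 2.69 to 2.95. At Onecut2, too, the regions left a gap at the start, from 0.44 kb before to 0.40 kb after it in HD and from 0.38 kb before to 0.22 kb after it in wild type.

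All 3 Onecut genes held H3K4me3, H3K27ac and H3K27me3 within 1 kb of the start in HD and in wild type. For Onecut2 and Onecut3 the presence of H3K4me3 there follows from how their start was chosen. Among all coding genes, 4.23% in HD and 6.66% in wild type held the 3 marks within 1 kb of an end. With regions under a -log10 q of 5 left out, 1 of the 3 genes in HD and 3 of 3 in wild type still held them, the 1 gene being Onecut3. The share of all coding genes at that cut was not computed, so this count is not read as particular to these genes. Whether the marks lie on the same DNA molecules or in different cells of the culture was not tested.

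H3K27me3 covered less of the surroundings of each gene in HD. Within 50 kb it covered 10.3 kb in HD and 20.5 kb in wild type at Onecut1, 11.9 kb in HD and 15.8 kb in wild type at Onecut2, and 17.3 kb in HD and 25.8 kb in wild type at Onecut3. These are ratios of 0.50, 0.75 and 0.67, and the ratio for the whole lists was 0.63, from 5729 regions in HD and 9365 in wild type, so the Onecut genes lie on both sides of the difference between the lists. H3K4me1 likewise covered 14.1 kb in HD and 21.6 kb in wild type at Onecut1, 21.6 kb in HD and 26.4 kb in wild type at Onecut2, and 23.6 kb in HD and 40.9 kb in wild type at Onecut3, with ratios of 0.66, 0.82 and 0.58 against 0.73 for the whole lists.

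H3K4me3 and H3K27ac differed less in the length they covered. The ratio of HD to wild type for H3K4me3 was 0.95 at Onecut1, 1.06 at Onecut2 and 0.76 at Onecut3, with 0.92 for the whole lists. For H3K27ac it was 1.07 at Onecut1, 1.36 at Onecut2 and 0.94 at Onecut3, with 1.08 for the whole lists. Of all regions of the 5 marks near the 3 genes, 89 of 103 in HD met a wild-type region by at least 1 base, and 78 of 137 in wild type met one in HD. The same shares over the whole lists were not computed, so these counts do not set the Onecut genes apart.

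H3K9me3 was sparse and weak in HD. Onecut1 had 0 regions within 50 kb in HD and 7 in wild type, Onecut2 had 2 in HD and 4 in wild type, and Onecut3 had 1 in HD and 12 in wild type. Of all coding genes, 47.2% in HD and 58.7% in wild type had such a region within 50 kb. The highest -log10 q among them was 2.54 in HD and 4.86 in wild type, and the whole lists held 15427 regions in HD and 21120 in wild type, a ratio of covered length of 0.71. Each of these lists comes from 1 library per genotype.

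**Figure D5:**
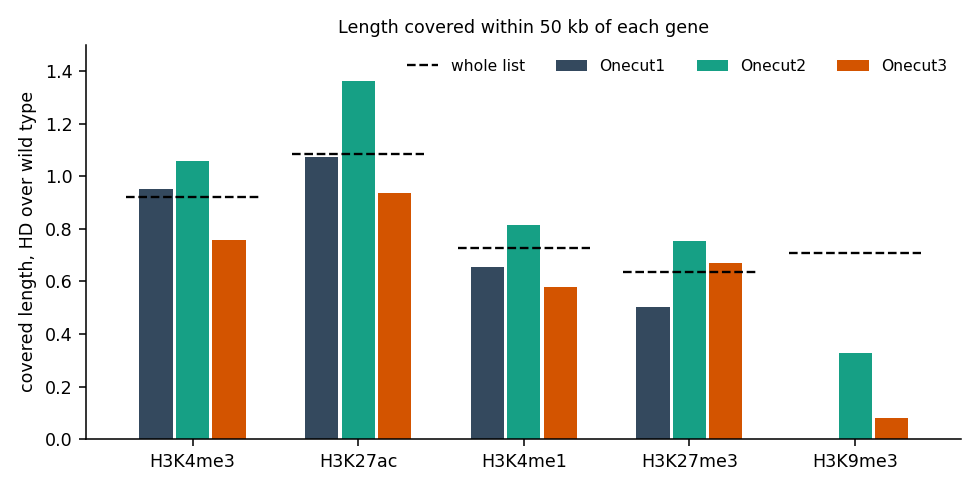
Length covered by each mark within 50 kb of Onecut1, Onecut2 and Onecut3, as the ratio of HD to wild type (vertical axis), with the same ratio over the whole lists as dashed lines. H3K27me3 and H3K4me1 lie below 1 at all 3 genes, as do their whole lists, and H3K9me3 lies lowest, with no bar at Onecut1 because HD had no region there.

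Mnx1 regions, listed for wild type, lay near 2 of the 3 Onecut genes, where 38.3% of all coding genes had one within 50 kb. At Onecut1 the first (chr9:74868868-74869299) lay 6.95 to 7.38 kb after the start, at the far edge of the H3K4me3 and H3K27ac regions, which it overlapped, with a fold of 5.17 and a -log10 q of 15.9. By fold it ranked 827 among 5793 Mnx1 regions. A second, weaker one (chr9:74871209-74871653) lay 9.29 to 9.73 kb after the start, with a fold of 2.63 and a -log10 q of 4.75, and overlapped no wild-type region of the 5 marks.

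At Onecut2 the Mnx1 region (chr18:64339685-64340159) lay across the start, with a fold of 3.28 and a -log10 q of 5.50. It overlapped H3K4me3 and H3K27ac in both genotypes and fell in the gap of H3K27me3, 0.03 kb from the nearest wild-type region of that mark. A Mnx1 region within 1 kb of an end was found at 13.1% of coding genes. Onecut3 had 0 Mnx1 regions within 50 kb. The antibodies named in the labels include one against GFP but none against Mnx1 itself, which leaves the way Mnx1 was captured unstated.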

How the data were processed

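RNA libraries were made from poly(A) RNA with a stranded kit, per the labels' protocols. The authors deposited expected counts and TPM per gene, per the file headers. The authors deposited region lists in MACS2 layout, which give a fold enrichment ratio and a -log10 q per region. There is 1 list per target and genotype, and how libraries were combined is not stated. The submitters' processing notes name RSEM, STAR, Bowtie2 and MACS2 with mm10. Here the expected counts were rounded, then compared by the quasi-likelihood test of edgeR 4.0.16 (TMM scaling, filterByExpr, R 4.3.3), with Benjamini-Hochberg adjustment over all genes and a threshold of 0.05. Comparisons among motor neurons used 6 libraries, and that with ES cells all 8. Standard errors are the fold change over the square root of F. Of regions with equal ends, the one of highest fold was kept. RefSeq tables (GRCm38.p6, the same coordinates as mm10) gave places and names. The pipeline was tested on simulated data. The members, the lists and the naming rule (members, list genes of smallest adjusted p, neighbours, most alike genes) were chosen with earlier results of these data known. Alternatives were DESeq2, limma on log2(TPM + 1), other scaling, filters, samples and windows. Some genes of the lists are not reported here.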

Additional observations from a re-analysis of the deposited data

Results flagged for a closer look

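Levels differed between the lines that share the knockout label, by the test of HD against EH (edgeR, adjusted p under 0.05). This held for Onecut1 and for the 10 other genes named below, where 21.2% of all genes were called. Further genes of the lists were called too and are not named here. In HD, 3 V2 interneuron genes were higher, and 3 endoderm genes, 1 dorsal or sensory gene and 1 pluripotency gene were lower. Of the cholinergic genes 1 was higher and 2 were lower, and the same held for the progenitor genes. The lines also differ in depth and in the spread of replicates, which cannot be told apart from the line. Onecut1 was higher in HD by 1.43 (log2; adjusted p = 0.00652) and its neighbour Gm16551 by 2.46 (adjusted p = 0.00187). Pax2 (2.07) and Slc6a5 (1.86), from the list of V1 and Renshaw genes, were higher in HD too, both at low levels. Of the 4 genes of that list tested, the other 2 were not called. Pax2 had 1.17 and 1.35 TPM in HD, below its 1.5 and 1.64 TPM in wild type, and 0.31 and 0.27 TPM in EH. Slc6a5 had 3.67 and 1.48 TPM in HD and 0.64 and 0.76 TPM in EH. Of the 13 genes of the Isl1 and Lhx3 programme, 7 were called the other way and 6 were not called, Lhx3 itself among the latter. The 7 were Lhx4 at -1.63, Ebf1 at -1.23, Isl2 at -1.19, Isl1 at -0.78, Mnx1 at -0.61, Neurod1 at -1.53 and Neurod4 at -4.08. Neurod4 was at or under 0.83 TPM in every library. The calls of Lhx4 and Gm16551 were kept when each library was left out in turn, and those of Onecut1 and of the other 8 genes were each lost without at least 1 HD library.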

How the results depend on the processing

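Over the alternatives, 181 of 210 values of the Onecut genes kept their direction and their side of the threshold, 23 became calls, 1 lost its call and 5 changed sign, the last for Onecut3 in HD against wild type and Onecut2 in HD against EH. For Onecut1 in HD against wild type, log2 fold changes past the threshold were 1.06 with DESeq2, 1.05 without a filter on low counts (adjusted p = 0.0106) and 1.06 with only those groups, and for Onecut2 0.65 with only those groups. Leaving out each library in turn gave, for HD against wild type, 0.91 to 1.22 for Onecut1, 0.52 to 0.79 for Onecut2 and -0.10 to 0.093 for Onecut3. For EH against wild type it gave -0.68 to -0.11, 0.12 to 0.90 and -0.55 to -0.12 for the genes in that order, and for HD against EH 1.17 to 1.74, -0.24 to 0.54 and 0.12 to 0.54. For both lines against wild type it gave 0.19 to 0.51 for Onecut1 and 0.38 to 0.78 for Onecut2. Of 247 values of the other named genes, 59 lost and 5 gained a call, and 0 changed sign. These values cover only results called in the main fit, apart from Gm16551 in HD against wild type. That result alone could gain a call, so losses and gains are not to be weighed against each other. At a -log10 q of at least 5, 1 gene in HD held all 3 marks, and the share of all coding genes at that cut was not computed. The counts of called genes moved more, over 0 to 533 for HD against wild type, 96 to 5925 for EH against wild type, 280 to 5209 for HD against EH, 0 to 3453 for both lines and 11942 to 13528 for wild-type motor neurons against ES cells. With limma on log2(TPM + 1) and log2(TPM + 0.1) the median over all genes in the last comparison was 0.43 and 0.60, and all 3 Onecut genes stayed higher in motor neurons. The cause of these shifts was not tested.

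Replicate numbers are shared between groups, but the labels do not say that they pair samples, and same-numbered libraries deviated with correlations of 0.102 (HD and wild type), -0.110 (EH and wild type) and -0.137 (HD and EH). A replicate block gave 1.46 for Onecut1 in HD against EH (adjusted p = 0.0152), and 0, 2080, 2154 and 5 called genes against 27, 3301, 3303 and 127 without it, for HD, EH, HD against EH and both lines. It changed no Onecut call. With the EH numbers crossed, a choice made after seeing the data as was leaving out libraries in the fit of HD and wild type, the counts were 25, 4289, 4218 and 1111.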
